A study of Mus musculus with 24 samples.

Results

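mRNA expression in the ventral tegmental area (VTA) at the light transitions, ZT0 (lights on) and ZT12 (lights off), was compared with expression at the times between them, ZT4, ZT8, ZT16 and ZT20. The arrays were grouped by time label alone, but the comparison and the gene lists were chosen with earlier results of these data known. All 24 of the 24 arrays of the series entered, 8 from the transitions and 16 from the mid-phase times. Of the 35556 probe sets of the array, the 23410 with an annotated gene were tested and are called transcripts here. The samples were VTA punches of wild-type male C57BL/6N mice aged 10 to 12 weeks, which lived under 12 h of light and 12 h of dark with chow and water freely available. At each of the 6 time points 4 mice were sampled, and each array held the RNA of 1 mouse.

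The VTA is the midbrain area whose dopamine neurons project to the striatum and cortex and take part in reward and the motivation to eat. Most daily rhythms of mRNA follow a single wave per day, which comes from the transcriptional clock loop and from daily signals such as corticosterone, body temperature and feeding. Some tissues, the liver best known among them, also carry mRNA rhythms with a 12-h period, and there these include genes of the endoplasmic reticulum (ER) and of the unfolded protein response, the programme that raises ER folding capacity under load.

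The contrast was the mean of the ZT0 and ZT12 means minus the mean of the ZT4, ZT8, ZT16 and ZT20 means, on the log2 scale. It is a 12-h cosine that peaks at lights on and lights off, and any pure 24-h cosine curve sums to 0 in it. A gene with a single daily wave can therefore score 0, and a gene with a short burst at 1 transition scores above 0. To separate these cases, the contrast was also split into its dawn part (ZT0 minus the mean of ZT20 and ZT4) and its dusk part (ZT12 minus the mean of ZT8 and ZT16), which share no arrays and whose mean is the contrast. A pure 12-h cosine gives both parts the same value, which can be 0, and a pure 24-h cosine gives them equal values of opposite sign. Waves of other shapes can give either pattern, so the signs do not classify a gene.

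The array medians lay between 6.71 and 6.79. One transition array stood apart, ZT0 replicate 4. Its median correlation with the other arrays was 0.970, against 0.988 to 0.993 for the others, and 327 of its transcripts were over 1 log2 unit lower than the average of the other ZT0 arrays. Because it is 1 of only 4 ZT0 arrays, many counts and named results are also given with it left out. A value given only once can also move without it, and the plot of list medians shows this for most lists. Markers of VTA dopamine neurons were measured on every array, Th (tyrosine hydroxylase, the rate-limiting enzyme of dopamine synthesis) between 7.43 and 8.21 and the dopamine transporter Slc6a3 between 8.01 and 9.18.

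No transcript passed the test between the light transitions and the mid-phase times. At an adjusted p under 0.05, 0 of 23410 transcripts were called (0%), by limma with Benjamini-Hochberg adjustment, and the smallest adjusted p was 0.534. At an unadjusted p under 0.05 there were 810 transcripts (3.46%), below the 5% that an even spread of p values would place there. Of these, 302 (1.29%) were higher and 508 (2.17%) were lower at the transitions. No transcript had all 8 transition arrays above, or all 8 below, all 16 mid-phase arrays.

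With that ZT0 array left out the count at an adjusted p under 0.05 was again 0 (0%), with a smallest adjusted p of 0.348 (limma). The count at an unadjusted p under 0.05 was then 1817 (7.76%), 880 higher (3.76%) and 937 lower (4%). The 2 sets shared 584 transcripts with the same sign, which is 72.1% of the 810 and 32.1% of the 1817. The lower end of the p values thus held more transcripts once this array was left out, as the plot of p values shows, but not enough for any to pass the adjustment.

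**Figure D1:**
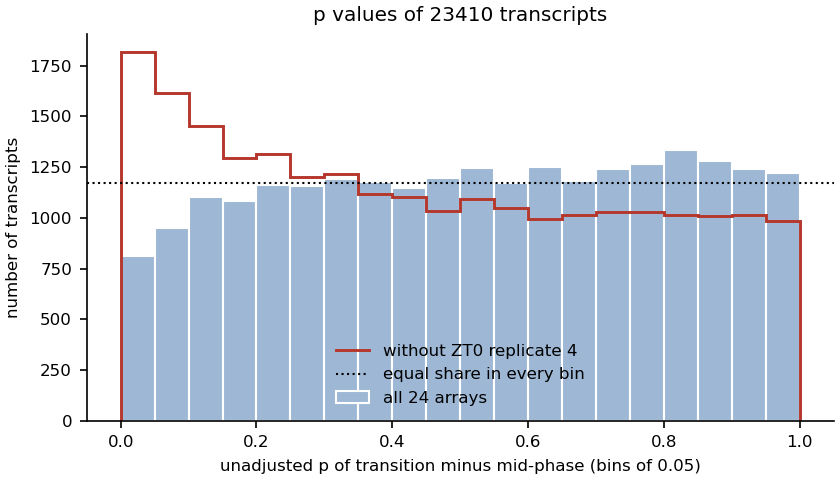
Number of transcripts (y axis) in bins of the unadjusted limma p (x axis, bins of 0.05) for transition minus mid-phase, with all 24 arrays (bars) and without ZT0 replicate 4 (line), the dotted line marking an equal share in every bin. The first bin holds 810 transcripts with all arrays, below the dotted line, and more without ZT0 replicate 4.

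A moderated F-test of the 12-h cosine and sine together, which also covers 12-h waves that peak between the transitions, called 0 transcripts (0%), with 676 (2.89%) at an unadjusted p under 0.05. With that array left out it called 0 as well, with 1440 (6.15%) at an unadjusted p under 0.05. The same fit of the same arrays called 11 transcripts (0.047%) in the F-test of the 24-h cosine and sine, with 1956 (8.36%) at an unadjusted p under 0.05. The share of small p values was thus 8.36% for a daily wave and 2.89% for a 12-h wave, or 9.68% and 6.15% without ZT0 replicate 4. The difference between these shares was not tested.

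The data bounded the size of this contrast, and so of a 12-h wave that peaks at the transitions, though not of one that peaks between them. The median standard error of the contrast was 0.0571, and the 95% confidence interval reached a median of 0.117 to either side on the log2 scale, a 1.08-fold difference. For 22072 transcripts (94.3%) the whole interval lay within a 1.2-fold difference in either direction, for 23394 (99.9%) within 1.5-fold, and for all of them (100%) within 2-fold. The same 3 shares were 93%, 99.9% and 100% without ZT0 replicate 4. The largest differences of any transcript were 0.355 upward and -0.41 downward. RMA compresses fold changes, above all of dim probe sets, so the bounds are those of the array signal. In tissue punches, fewer cells of a type and less RNA per cell cannot be told apart.

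The smallest p belonged to Ctsc, the lysosomal protease cathepsin C, which activates serine proteases of immune cells. It was at 5.59, 5.77 and 5.96 (lowest, median and highest of 8 arrays) at the transitions and at 5.91, 6.04 and 6.36 (of 16 arrays) at the mid-phase times. The ranges overlapped, but all 8 transition arrays lay below the mid-phase median. Ctsc was lower by a difference of -0.29 (SE 0.056), with an unadjusted p of 2.28e-05 and an adjusted p of 0.534 (limma). Both parts had that sign, -0.26 at dawn and -0.31 at dusk, and the difference without ZT0 replicate 4 was -0.25. The same sign in both parts follows largely from choosing by a small p of their mean. It was found in 771 of the 810 transcripts (95.2%) with an unadjusted p under 0.05 (limma). Ctsc is a dim transcript below the median level, as were Inpp1, a phosphatase of inositol phosphates, with a difference of -0.21 and Esm1, an endothelial proteoglycan, with -0.18. The adaptor Pag1 was higher in all 8 transition arrays than the mid-phase median, with a difference of 0.21. These 4 genes were chosen after their values were seen, since the naming rule is restricted to transcripts above the median level.

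Small p values came more from dim transcripts. Among the 810 with an unadjusted p under 0.05, 529 (65.3%) had a mean level below the median of all transcripts, which by definition holds 50% of them. The 1190 olfactory and vomeronasal receptor genes, which are silent in most brain tissue, were part of this. Their median difference was -0.020, with 19 higher and 49 lower at an unadjusted p under 0.05, where 1.29% and 2.17% of all transcripts were. ZT0 replicate 4 had the highest mean of these genes, 5.41 against 5.20 to 5.38 in the other 23 arrays. Once it was left out the median was -0.039, with 13 higher and 99 lower, against 3.76% and 4% of all transcripts. Olfr344 had the most negative difference of the list, -0.34 (unadjusted p = 8.53e-05).

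Among transcripts above the median level, the 10 with the smallest p in each direction were named by rule, and none passed the adjustment. The 10 higher at the transitions were Tcl1b5 (0.17), Lrrn1 (0.14), Acp6 (0.15), Cldn11 (0.14), Amer1 (0.15), Maco1 (0.11), Reep3 (0.15), Cpm (0.14), Chd5 (0.12) and Rab28 (0.13), each value a log2 difference. Lrrn1 encodes a leucine-rich repeat protein of the neuronal surface. It was at 9.23, 9.36 and 9.56 (lowest, median and highest) at the transitions and at 9.12, 9.24 and 9.34 at the mid-phase times, so 5 of 8 transition arrays lay above every mid-phase array. Cldn11, the claudin of myelin tight junctions, was at 8.08, 8.23 and 8.32 against 7.91, 8.08 and 8.25, with 7 of 8 transition arrays above the mid-phase median. Macoilin (Maco1), a membrane protein of the neuronal ER, had a dawn part of 0.03 and a dusk part of 0.20. Chd5, a chromatin remodeller of neurons, likewise had 0.06 at dawn and 0.18 at dusk. A further probe set of Reep3 gave a smaller difference, 0.05 with an unadjusted p of 0.347.

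The 10 lower at the transitions were Ccdc9b (-0.19), Myod1 (-0.15), Slc6a13 (-0.24), Syne2 (-0.20), Crabp2 (-0.20), Myh11 (-0.15), Mir15a (-0.25), Lair1 (-0.16), Npn2 (-0.20) and Lyz2 (-0.20). Ccdc9b had the smallest p of the 20, 0.000763. It was at 6.94, 7.11 and 7.22 at the transitions and at 7.04, 7.27 and 7.45 at the mid-phase times, and all 8 transition arrays lay below the mid-phase median. The same held for Syne2, which encodes a giant nesprin of the nuclear envelope, and for Crabp2, a retinoic acid binding protein. The 3 further probe sets of Syne2 gave differences of -0.15, -0.05 and -0.18. Slc6a13 encodes a GABA transporter of the meninges, Myh11 is the myosin of smooth muscle, and Lyz2 is the lysozyme of macrophages. The 20 genes, without ZT0 replicate 4, kept their sign, with differences from -0.21 to 0.17. The plot of the leading genes shows how far the arrays of each time point scattered.

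**Figure D2:**
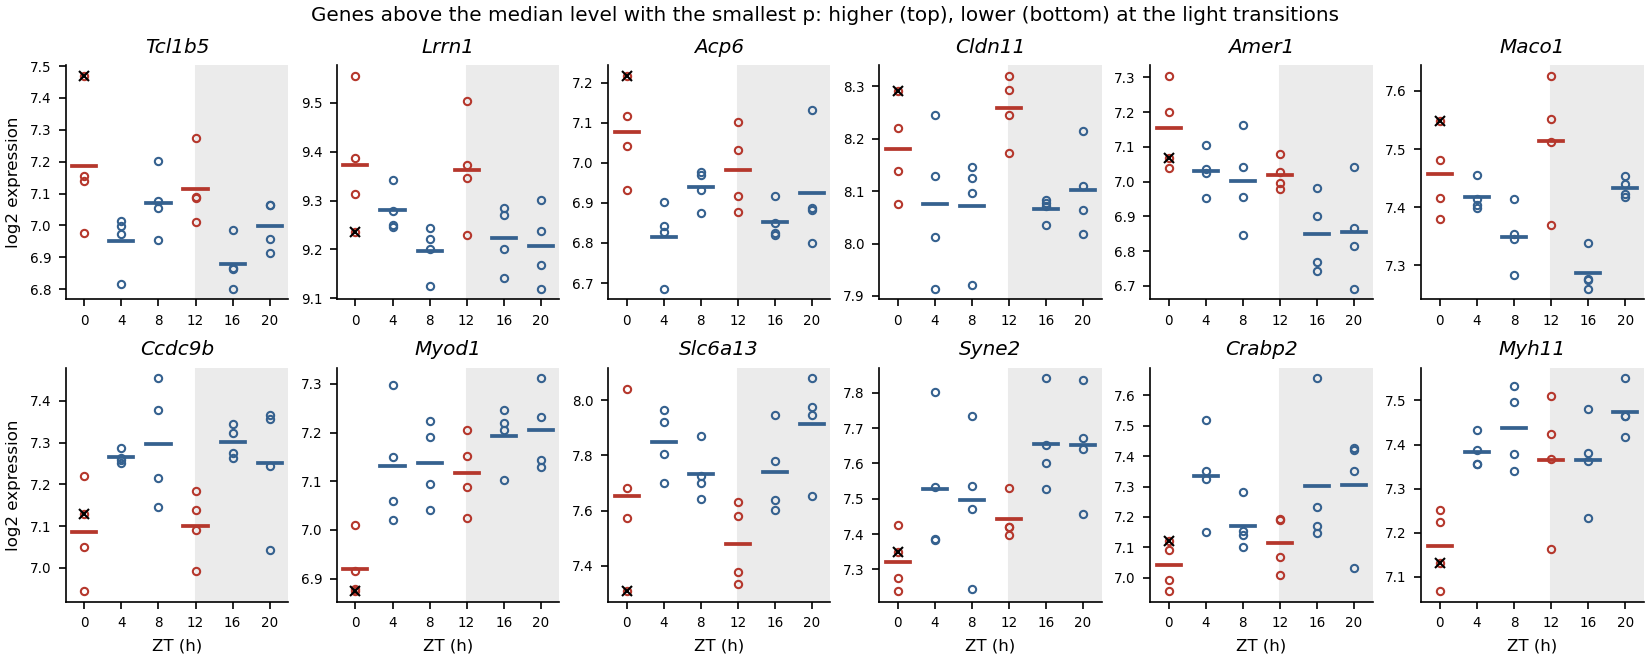
log2 expression (y axes) against ZT in h (x axes) for 6 of the 10 named genes that were higher and 6 of the 10 that were lower at the light transitions, one circle per array, bars for time-point means, red for ZT0 and ZT12, blue for mid-phase times, grey for the dark phase and a cross on ZT0 replicate 4. Time-point means differ by small fractions of a log2 unit and the arrays of the transitions and the mid-phase times overlap in every panel.

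Mir15a is the gene of a microRNA precursor, and which RNA of this gene its probe set reads was not tested. It was at 6.34, 6.93 and 7.19 at the transitions and at 6.94, 7.13 and 7.47 at the mid-phase times. The lowest of these was ZT0 replicate 4, and the difference of -0.25 was -0.17 without it. The mature forms of this gene are shown because microRNAs act through bases 2 to 8, the seed, which is in capitals (sequences from RefSeq, GRCm38.p6, 5′ to 3′).
mmu-miR-15a-5p (chr14:61632075-61632096, minus strand): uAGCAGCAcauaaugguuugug
mmu-miR-15a-3p (chr14:61632038-61632059, minus strand): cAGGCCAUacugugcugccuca

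Splitting the contrast at dawn and dusk called no transcript either. The dawn part called 0 (0%) at an adjusted p under 0.05 with 1168 (4.99%) at an unadjusted p under 0.05, 2.15% higher and 2.84% lower. The dusk part called 0 (0%) with 921 (3.93%), 1.86% higher and 2.08% lower, both by limma. The dawn part without ZT0 replicate 4 had 2540 (10.9%) at an unadjusted p under 0.05 and again 0 calls. Both parts had one sign in 47.1% of all transcripts, and in 95.2% of the 810 picked by an unadjusted p under 0.05 of their mean. Dawn minus dusk called 0 (0%), with 1206 (5.15%) at an unadjusted p under 0.05, 2.28% higher and 2.87% lower, and a smallest adjusted p of 0.578. It had 1856 (7.93%) at an unadjusted p under 0.05, and 0 calls, once ZT0 replicate 4 was left out.

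Sgk1, one of the 11 transcripts called in the 24-h F-test (adjusted p = 0.00298, limma), was highest at ZT12. It is a kinase gene induced by glucocorticoids, which in mice peak around lights off. At ZT12 its 4 arrays were at 7.65, 7.60, 7.35 and 7.65, a mean of 7.56 ± 0.14 (SD, n = 4). Means at the other time points were 6.80 at ZT0, 6.74 at ZT4, 6.95 at ZT8, 7.18 at ZT16 and 7.25 at ZT20, so 3 of the 4 ZT12 arrays lay above all other arrays of the study. The dusk part was 0.49 (SE 0.096), with an unadjusted p of 2.4e-05 and an adjusted p of 0.490 (limma), and the dawn part was -0.19. The mean of both, 0.15, had an unadjusted p of 0.0355 in the transition contrast.

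Glucocorticoid-induced genes as a list were mostly above 0 at dusk and below 0 at dawn. Of the 15 measured of 16 listed, Sgk1 among them, 13 had a dusk part above 0 and 1 had a dawn part above 0. Over all transcripts, 52.8% and 47.3% did. The medians were 0.079 at dusk and -0.095 at dawn, against 0.0052 and -0.0055 over all transcripts. At an unadjusted p under 0.05, 5 were higher at dusk (1.86% of all transcripts were) and 3 were lower at dawn (2.84%). At dusk Tsc22d3 (GILZ, a glucocorticoid-induced leucine zipper) had a part of 0.22 and the metallothionein Mt2 of 0.21, and at dawn Nfkbia, the inhibitor of NF-kB, had -0.27. Over the whole contrast these cancelled. The list median was 0.0031, and Klf9, a transcription factor induced by glucocorticoids, had parts of -0.18 and 0.18 and a difference of 0.0031.

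Heat shock and cytosolic chaperone genes, which help proteins fold and follow body temperature, were mostly above 0 at dawn and below 0 at dusk. Of the 17 measured of 20, 16 had a dawn part above 0 and 4 had a dusk part above 0, with medians of 0.13 and -0.061. Over all transcripts, 47.3% and 52.8% were above 0, with medians of -0.0055 and 0.0052. Leaving out ZT0 replicate 4 gave a dawn median of 0.18. Then 10 of the 17 were higher at an unadjusted p under 0.05 (5.28% of all transcripts were), in place of 3 (2.15% were). Their level in this array, a mean of 9.04 over the list, was below the 9.15 to 9.44 of the other ZT0 arrays. The list median in the transition contrast was 0.055, with 14 of 17 above 0 and 1 higher (49.9% and 1.29% of all transcripts were). Without that array it was 0.091 with 4 higher (3.76% of all transcripts were). Dnajb1 (an HSP40 co-chaperone) was higher, 0.14 with an unadjusted p of 0.0269, from a dawn part of 0.30 and a dusk part of -0.02. Hspb1 (HSP27) was lower, -0.13 with an unadjusted p of 0.00976, and its further probe set gave -0.14.

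The cold-inducible RNA binding proteins Cirbp and Rbm3, which rise as temperature falls, had dawn parts of -0.05 and -0.15 and dusk parts of 0.15 and 0.16. Their differences in the transition contrast were 0.05 and 0.0058. The plot of dawn against dusk parts sets the lists side by side.

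**Figure D3:**
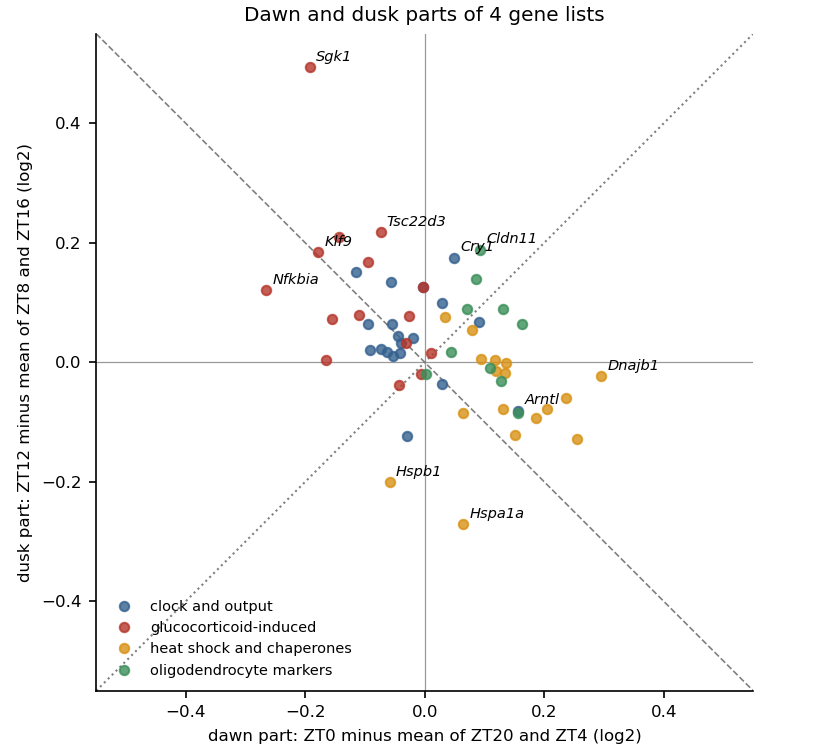
Dusk part (y axis, log2) against dawn part (x axis, log2) for the genes of 4 lists, one point per gene. A pure 12-h cosine lies on the dotted line and a pure 24-h cosine on the dashed line, and waves of other shapes can lie elsewhere. Most glucocorticoid-induced genes lie at upper left, most heat shock genes at lower right, and oligodendrocyte markers mainly right of 0.

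Clock genes had differences near 0. The core clock pairs activators (Arntl, also known as Bmal1, and Clock) with repressors of the Per, Cry and Nr1d families, and drives output genes such as Dbp. Of the 19 measured of 21 listed, 9 were above 0 (49.9% of all transcripts were) and the median was -0.00015. Without ZT0 replicate 4, 12 were above 0 (45.2% of all transcripts were) and the median was 0.026. The widest confidence bound of any of them was 0.227, a 1.17-fold difference (Bhlhe41). The dawn and dusk parts had medians of -0.042 and 0.041, with 16 of 19 above 0 at dusk (52.8% of all transcripts were). Nr1d1 (REV-ERBα), a called 24-h gene, had means of 8.22, 8.44, 8.71, 8.59, 8.35 and 8.19 from ZT0 to ZT20, and its dawn part of -0.10 and dusk part of 0.06 left a difference of -0.015.

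Cry1 was the only 1 of the 19 at an unadjusted p under 0.05 in the contrast (1.29% of all transcripts were higher). Cry1 was at 7.33, 7.60 and 7.78 at the transitions and at 7.26, 7.44 and 7.78 at the mid-phase times, and 6 of 8 transition arrays lay above the mid-phase median. The difference was 0.11 (SE 0.054, unadjusted p = 0.0498). Without ZT0 replicate 4, the lowest of the transition arrays, it was 0.14 (unadjusted p = 0.0176). With all arrays the dawn part was 0.05 (unadjusted p = 0.532) and the dusk part 0.18 (unadjusted p = 0.0313, both limma). The F-test of its 24-h wave had an unadjusted p of 0.000297 and an adjusted p of 0.178 (limma). The transcription factors of the clock bind E-boxes, and the letters CACGTG read the same on both strands. In the 250 bases before the start, these letters were in 1978 of all 32851 promoters (6.02%). Counted by gene in place of promoter, with any promoter of a gene enough, they were in 5 of the 17 clock genes with a promoter (Bhlhe41, Ciart, Cry1, Per1 and Tef). The promoter of Cry1 is shown as the clock gene with the highest difference, with the match in capitals (RefSeq, GRCm38.p6). A match is a description of letters and not a binding site.
Cry1 (chr10:85185055-85185304, minus strand): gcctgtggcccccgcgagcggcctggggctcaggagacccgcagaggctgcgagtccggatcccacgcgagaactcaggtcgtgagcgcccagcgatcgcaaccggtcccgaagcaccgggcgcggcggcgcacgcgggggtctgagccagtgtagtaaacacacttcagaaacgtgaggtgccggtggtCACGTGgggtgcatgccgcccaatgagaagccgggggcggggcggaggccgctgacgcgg

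The 11 transcripts called in the 24-h F-test varied in this contrast. Of these, Dbp (0.02), Nr1d1 (-0.015), Klf9 (0.0031), Slc7a5 (0.01), Zbtb16 (0.04) and Cirbp (0.05) had small differences. Adipor2, an adiponectin receptor, had 0.16 and Etnppl, an enzyme of phosphoethanolamine breakdown in astrocytes, had 0.14, both from dusk parts of 0.34 and dawn parts of -0.02 and -0.06. For Fabp7, the fatty acid binding protein of astrocytes and progenitors, 1 array decided the value. Its ZT0 arrays were at 8.98, 8.66, 8.995 and, in replicate 4, 7.64. The difference was 0.12 (unadjusted p = 0.301) with that array and 0.28 (unadjusted p = 0.00141) without it. Id2, an inhibitor of helix-loop-helix factors, had parts of one sign, -0.10 at dawn and -0.14 at dusk, and a difference of -0.12 with that array and -0.07 without it.

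Genes of the ER chaperones and unfolded protein response, the set known for 12-h rhythms in liver, had no shared difference in the VTA. All 30 listed genes were measured, 15 were above 0 and the median was -0.000043. None had an unadjusted p under 0.05 in the transition contrast, and their differences ran from -0.11 (Atf6, an ER stress sensor) to 0.09 (Dnajc3, an ER co-chaperone). Every confidence interval of the list lay within 0.238 of 0, a 1.18-fold difference. Xbp1, the transcription factor of the 12-h programme in liver, was at 6.80, 6.90 and 7.16 at the transitions and at 6.78, 6.87 and 7.11 at the mid-phase times. Its difference was 0.02 (SE 0.047). In the 23 arrays other than ZT0 replicate 4, Dnajc3 was higher (0.14, unadjusted p = 0.00869) and Hyou1, an ER chaperone of the HSP70 class, was lower (-0.10, unadjusted p = 0.0343), and the list median was 0.010.

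Hspa5 (BiP), the main chaperone of the ER, had opposite values at dawn and dusk. Its 4 arrays were at 9.97, 9.84, 9.89 and 9.79 at ZT0 and at 9.47, 9.56, 9.41 and 9.30 at ZT12. Means between them were 9.66 at ZT4, 9.54 at ZT8, 9.73 at ZT16 and 9.69 at ZT20. The dawn part was 0.20 and the dusk part -0.20, which left a difference of -0.00073 (SE 0.049). The F-test of its 24-h wave had an unadjusted p of 0.000105 and an adjusted p of 0.133 (limma). Calr, a calcium-binding ER chaperone, had 0.18 at dawn and -0.11 at dusk. The interval plot shows the list beside the clock and dopamine genes.

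**Figure D4:**
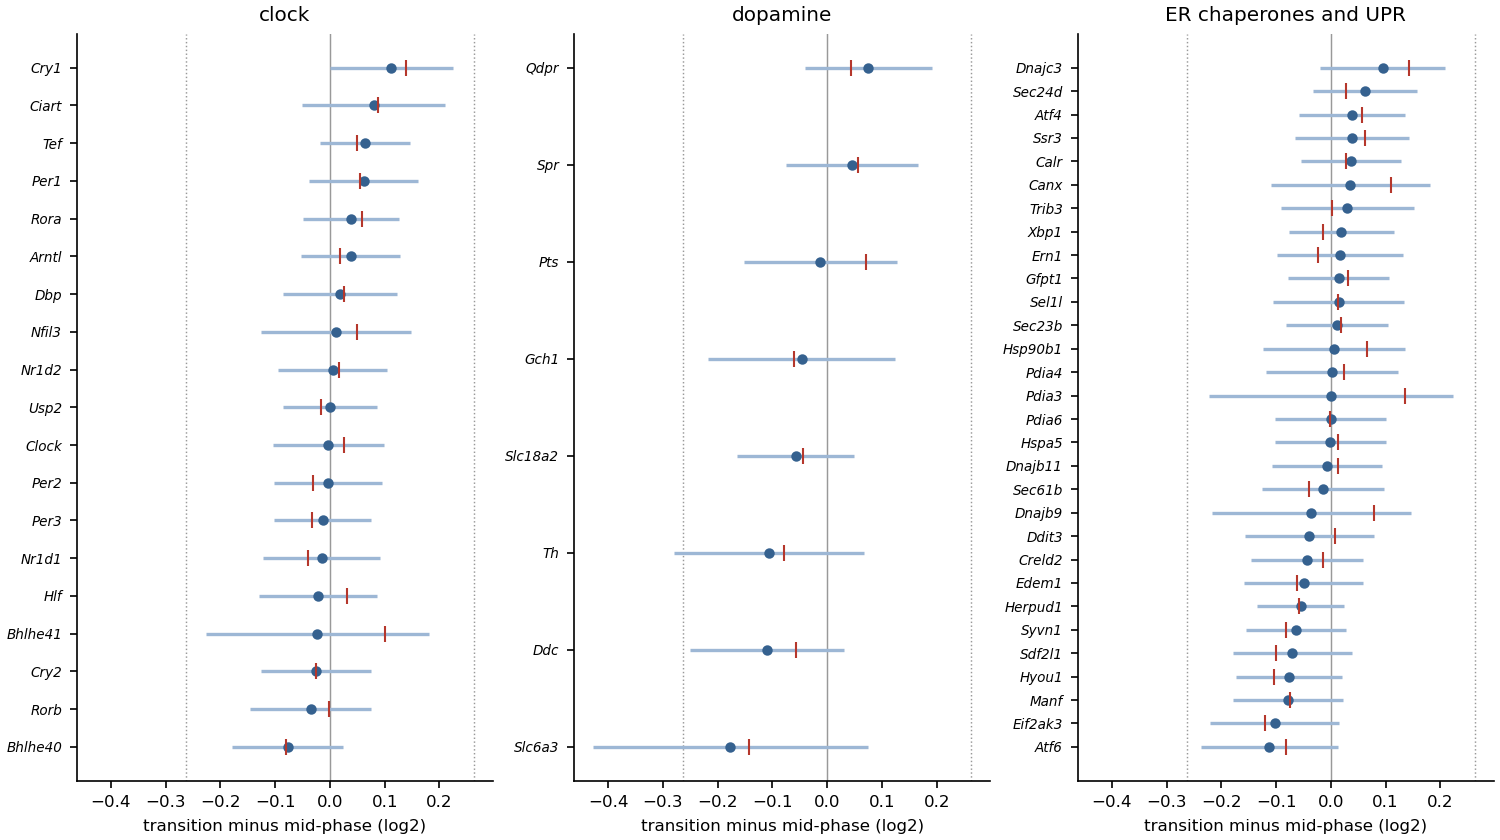
Difference of transition minus mid-phase (x axes, log2) for the genes of 3 lists (y axes), with 95% confidence intervals (bars), the value without ZT0 replicate 4 (red ticks) and dotted lines at a 1.2-fold difference. Of the genes drawn, only Cry1 has an interval that leaves out 0, and only Slc6a3 and Th have one that crosses a dotted line.

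The ER stress response element, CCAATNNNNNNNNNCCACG, is the letter pattern through which ATF6 and XBP1 are known to act. Searched on both strands in the 250 bases before each gene start, it was in 37 of all 32851 promoters (0.113%). Counted by gene in place of promoter, with any promoter of a gene enough, it was in 8 of the 27 genes of the list with a promoter (Calr, Canx, Creld2, Dnajc3, Hsp90b1, Hspa5, Pdia6 and Syvn1). The promoters of 3 of them are shown, with the element in capitals, because the same pattern stands before genes with different values: differences of -0.00073 for Hspa5, 0.09 for Dnajc3 and -0.06 for Syvn1, a ubiquitin ligase of ER-associated degradation (RefSeq, GRCm38.p6, 5′ to 3′ in the direction of the gene).
Hspa5 (chr2:34771840-34772089, plus strand): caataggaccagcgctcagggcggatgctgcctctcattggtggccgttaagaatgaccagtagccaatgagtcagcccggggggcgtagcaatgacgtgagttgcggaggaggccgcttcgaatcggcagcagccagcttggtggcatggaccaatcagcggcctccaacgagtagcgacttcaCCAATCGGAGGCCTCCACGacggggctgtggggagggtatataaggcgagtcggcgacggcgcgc
Dnajc3 (chr14:118937682-118937931, plus strand): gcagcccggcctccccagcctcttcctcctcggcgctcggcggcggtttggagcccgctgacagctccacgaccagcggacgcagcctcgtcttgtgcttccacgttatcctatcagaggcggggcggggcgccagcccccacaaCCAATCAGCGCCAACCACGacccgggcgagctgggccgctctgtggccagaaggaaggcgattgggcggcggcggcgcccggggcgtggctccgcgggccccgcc
Syvn1 (chr19:6046326-6046575, plus strand): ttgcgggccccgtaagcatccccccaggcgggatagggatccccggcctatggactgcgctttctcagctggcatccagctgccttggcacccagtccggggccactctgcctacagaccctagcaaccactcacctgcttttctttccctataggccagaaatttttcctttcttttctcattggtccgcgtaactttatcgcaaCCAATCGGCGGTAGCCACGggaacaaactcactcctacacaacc
The intervals of these 3 genes all held 0, from -0.10 to 0.10 for Hspa5, from -0.02 to 0.21 for Dnajc3 and from -0.16 to 0.03 for Syvn1.

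No dopamine synthesis gene passed the test, and every confidence interval held 0. Of the 8 genes of dopamine synthesis, packaging and reuptake, 2 were above 0 (49.9% of all transcripts were). None had an unadjusted p under 0.05, and the median was -0.052. Th was at 7.43, 7.66 and 7.94 at the transitions and at 7.50, 7.81 and 8.21 at the mid-phase times, a difference of -0.11 (SE 0.084, unadjusted p = 0.220). Ddc, which makes dopamine from L-DOPA, had -0.11 (SE 0.069), and -0.06 without ZT0 replicate 4. Slc6a3 had -0.18 (SE 0.12) with the widest bound of the list, 0.428 or 1.35-fold. Of the dopamine receptor genes, Drd4 was lower at an unadjusted p under 0.05 (2.17% of all transcripts were). Its difference was -0.13. The 10 dopamine neuron markers, which partly repeat these genes, had a median of -0.058, and their mean level in ZT0 replicate 4 (7.60) was below that of the other 23 arrays (7.64 to 8.05). How much of the difference came from the share of dopamine neurons in each punch was not tested.

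Markers of other cell types leaned in either direction by small amounts, where 49.9% of all transcripts were above 0. Oligodendrocyte and myelin genes had a median of 0.065, with 9 of 10 above 0 and 3 of them, Cldn11 (0.14), Mobp (0.11) and Mal (0.11), higher at an unadjusted p under 0.05, where 1.29% of all transcripts were. Mural and meningeal genes had a median of -0.045, with 0 of 10 above 0, and Myh11 and Acta2 (-0.23, smooth muscle actin) lower at an unadjusted p under 0.05, where 2.17% of all transcripts were. The Acta2 difference came from a dawn part of -0.44 and a dusk part of -0.02. Summed as a mean over the list, the mural genes were at 7.44 to 7.70 at the transitions and 7.46 to 7.70 at the mid-phase times, and the oligodendrocyte genes at 9.01 to 9.20 and 8.92 to 9.22, so the groups overlapped in both lists. Astrocyte (median 0.0094), endothelial (-0.012) and microglial genes (0.020) had none at an unadjusted p under 0.05. The part of tissue composition in the gene differences above was not tested.

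Genes of energy metabolism and lipid synthesis leaned above 0 by small amounts. Over all transcripts, 49.9% were above 0 and 1.29% were higher at an unadjusted p under 0.05. Cholesterol synthesis genes had a median of 0.066 with 16 of 20 above 0, and Hmgcs1, which makes HMG-CoA, was higher (0.12, unadjusted p = 0.0373). With ZT0 replicate 4 left out, 4 of them were higher at an unadjusted p under 0.05, Hmgcs1, Cyp51, Nsdhl and Idi1, where 3.76% of all transcripts were. The 29 glycolysis and citric acid cycle genes had a median of 0.055 (25 above 0, none at an unadjusted p under 0.05), and the 74 nuclear genes of oxidative phosphorylation had 0.032 (55 above 0, none). Without that array the glycolysis median was 0.033. That of oxidative phosphorylation was 0.048, with 64 above 0 and 5 higher (45.2% and 3.76% of all transcripts were). The oxidative phosphorylation list had a median of 0.078 at dawn, with 6 of 74 higher (2.15% of all transcripts were), and -0.021 at dusk. Its dawn count without that array was 24 of 74, where 5.28% of all transcripts were higher. Genes of synaptic vesicle release had a median of 0.037 with 23 of 26 above 0. Of these 26, 1, Sv2c, was higher at an unadjusted p under 0.05, where 1.29% of all transcripts were. The 31 immediate early genes, which mark recent neuronal activity, had a median of 0.0017 and none at an unadjusted p under 0.05.

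**Figure D5:**
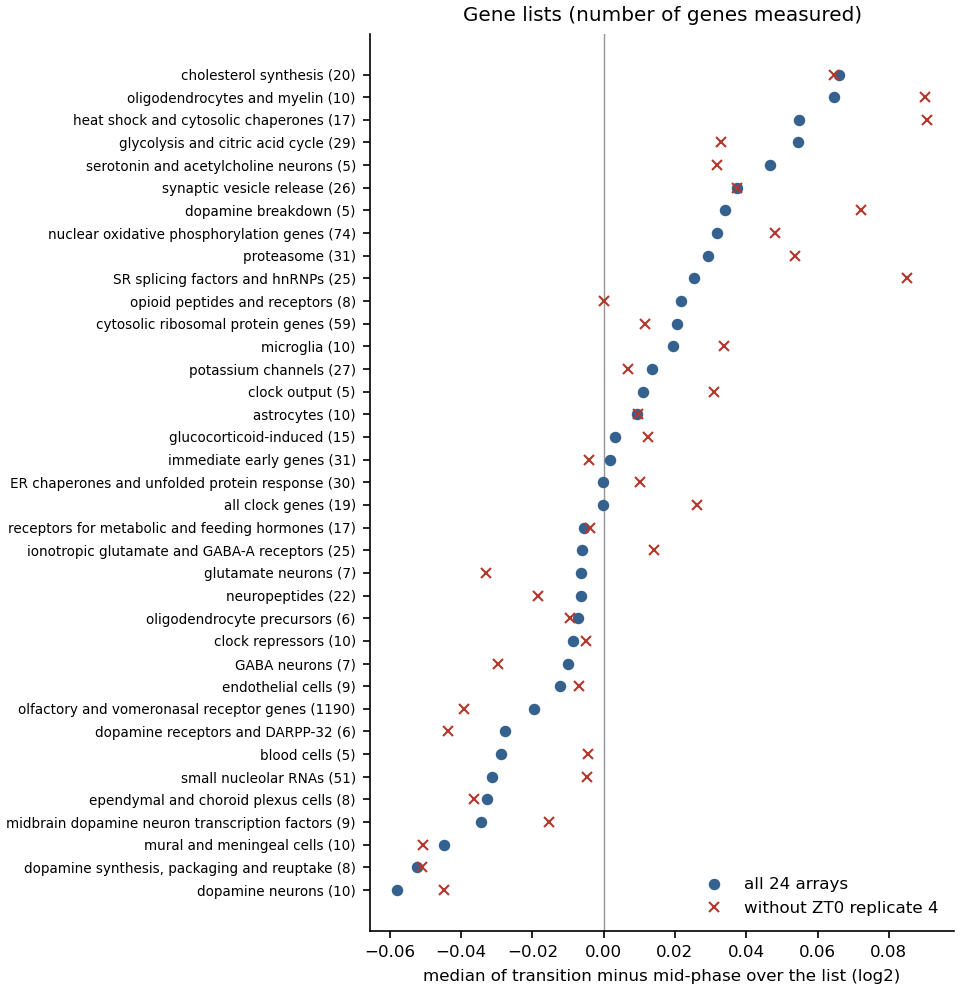
Median difference of transition minus mid-phase (x axis, log2) over the genes of each list (y axis, number of measured genes in brackets), with all 24 arrays (points) and without ZT0 replicate 4 (crosses). All medians lie within 0.1 of 0, and the splicing factors move most between the 2 marks.

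The values of some lists turned on ZT0 replicate 4. SR splicing factors and hnRNPs, which steer alternative splicing, had a mean of 8.74 in this array, against 8.94 to 9.30 in the other 23. Their median difference was 0.025 with none of 25 at an unadjusted p under 0.05, and 0.085 with 7 higher once it was left out (3.76% of all transcripts were), among them Clk1 (0.19), Tra2a (0.16) and Luc7l3 (0.15). Small nucleolar RNAs were at 5.61 in it, against 5.77 to 5.95, and glycolysis genes at 9.40, against 8.997 to 9.33. Among single genes, Ndst4, an enzyme of heparan sulfate synthesis, went from 0.24 (unadjusted p = 0.00182) to 0.30 (unadjusted p = 2.97e-05, limma adjusted p = 0.348). Olfr344 had the same adjusted p with a smaller unadjusted p (1.96e-05). The value of Ndst4 in ZT0 replicate 4 was 6.31, below the 6.77 that was the median of its transition arrays.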

How the data were processed

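The authors measured total RNA of VTA punches (0.5-mm slices, 1 mouse per array) on GeneChip Mouse Gene 1.0 ST arrays and deposited log2 values made with RMA (background correction, quantile normalization, median polish) in R 2.13.1, per the labels. Values ran from 2.27 to 14.1. Arrays give no read depth, so their number (8 against 16) limits the precision. The paper's methods name another sampling interval than the 4 h of the labels, and the labels were used. No table column lacked a sample (0).

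Of 35556 probe sets, 21789 had 1 gene, 1621 had several and 12146 had none. Symbols were updated through the GRCm38.p6 gene table for 21698, and each of 19938 genes was represented by the brightest of its probe sets. The 6 time points were fitted as groups in limma 3.58.1 (R 4.3.3), contrasts were tested with moderated statistics and p values were Benjamini-Hochberg adjusted over all 23410 transcripts (called at an adjusted p under 0.05). The 41 gene lists, 12 of them cell type markers, are described by counts and medians with no test. Intervals are 95%. Replicates are separate mice, without a stated link between equal numbers. Scripts were tested on simulated data. Plots used matplotlib 3.10.9.

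Genes were named by rule: up to 12 a direction that passed, otherwise the 10 with the smallest p above the median level, plus clock and dopamine synthesis genes and up to 4 per list with the smallest p. Predicted genes were not named. Other genes named were chosen after their values were seen. The comparison, members and lists were chosen with earlier results of these data known. Alternatives changed the probe sets tested, normalization, array weights, moderation, scale, model, replicate block and the arrays or time points included.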

Additional observations from a re-analysis of the deposited data

Results flagged for a closer look

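Of 282 groups of 4 arrays (the clock, dopamine synthesis and leading genes at each time point), 10 held 1 array far from the other 3, a gap above Dixon's 95% critical share of the range of the group. Chance gives about 5%, or about 1 in 20 groups. Each is given with the gap as a share of the range. Chd5 at ZT4 replicate 4 (share 0.968) was at 7.97, with the others at 7.90 to 7.91. Rab28 at ZT0 replicate 2 (0.906) was at 7.17, below 7.41 to 7.43. Pts, an enzyme of tetrahydrobiopterin synthesis, at ZT0 replicate 4 (0.89) was at 8.37, below 9.002 to 9.08. Per1 at ZT16 replicate 3 (0.866) was at 6.69, above 6.53 to 6.55. Gch1 at ZT8 replicate 3 (0.863) was at 5.36, below 5.45 to 5.46. Lyz2 at ZT4 replicate 2 (0.857) was at 7.23, above 6.75 to 6.82. Ddc at ZT12 replicate 1 (0.849) was at 8.68, above 8.32 to 8.38. Per3 at ZT8 replicate 3 (0.84) was at 6.73, above 6.61 to 6.63. Syne2 at ZT12 replicate 4 (0.836) was at 7.53, above 7.40 to 7.42. Crabp2 at ZT16 replicate 4 (0.83) was at 7.66, above 7.15 to 7.23.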

How the results depend on the processing

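Under all 42 alternatives, 0 transcripts were called at an adjusted p under 0.05 in the transition contrast, and the dawn part, dusk part and 12-h F-test were at 0 wherever they could be fitted. Dawn minus dusk ran from 0 to 1 as single arrays were left out, and the 1 was Sgk1 (-0.75, SE 0.117, adjusted p = 0.026, limma) without ZT20 replicate 1. The count at an unadjusted p under 0.05 in the transition contrast was 810 of 23410 (3.46%). With other numbers tested, it was 1430 over all 35556 probe sets and 316 (2.7%) above the median level. It was 2768 with array weights and 1502 without ZT0 replicate 4 and with a further quantile normalization. It was 1356 without the 4 arrays of ZT0 and 1481 without those of ZT12, where 1 transition is left and a daily wave no longer sums to 0. It ran from 694 (without ZT4 replicate 3) to 1817 (without ZT0 replicate 4) as single arrays were left out, and was 1383 without ZT0 replicate 2. An unmoderated test gave 864. With a replicate block it was 841 with 0 calls, and the block changed no other call. No source links equal replicate numbers, and the deviations of same-numbered arrays had a median correlation of 0.0259 over 60 pairs (-0.302 to 0.582). The 20 leading genes kept their sign under all alternatives (840 values, 0 reversed), and of 8970 values of named genes 333 had the other sign. The 20 were picked for small p in these same arrays, which the alternatives fit again, so the kept signs are no independent support. The smallest adjusted p of a named gene in the contrast was 0.0644 (Sgk1, ZT0 left out). Sampling every 4 h gives 3 points per 12-h wave, and dim transcripts, compressed by RMA, have bounds in array signal only.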

Other observations

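Lists not described above stayed near 0 in the transition contrast. Over all transcripts, 49.9% were above 0, and at an unadjusted p under 0.05 1.29% were higher and 2.17% lower. Proteasome genes had a median of 0.029 with 25 of 31 above 0 and 1, Psmc2 (0.11), at an unadjusted p under 0.05. Ribosomal protein genes had 0.021 with 42 of 59 above 0 and none. Receptors for metabolic and feeding hormones had -0.0055, with Adipor2 higher (0.16) and the melanocortin receptor Mc3r lower (-0.13, unadjusted p = 0.0341). Among ion channels and receptors, Gabra4 (-0.14), a GABA-A receptor subunit, Grik5 (-0.11), a kainate receptor subunit, and Kcnk3 (-0.13), a leak potassium channel, were lower at an unadjusted p under 0.05 (2.17% of all transcripts were), with list medians of -0.0060 for ionotropic receptors and 0.014 for potassium channels. Without ZT0 replicate 4 Gabra4 had -0.10 (unadjusted p = 0.0577), and the ionotropic list had a median of 0.014 with 4 higher and 1 lower (3.76% and 4% of all transcripts were). Opioid genes (0.022), neuropeptides (-0.0063), dopamine breakdown genes (0.034), midbrain dopamine transcription factors (-0.034), snoRNA host genes and related transcripts (0.00042, 4 genes) and the 2 mitochondrially encoded genes measured (0.048) had none. Nor had markers of GABA neurons (-0.010), glutamate neurons (-0.0062), serotonin and acetylcholine neurons (0.047), oligodendrocyte precursors (-0.0072), ependymal and choroid plexus cells (-0.033) and blood cells (-0.029). Some of these medians moved without ZT0 replicate 4, among them dopamine breakdown (0.072), snoRNA host (0.039) and opioid genes (-2.3e-05).

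The peptide gene Cartpt had the widest confidence bound of the 22 neuropeptide genes. Its ZT0 arrays were at 7.01, 7.72, 8.12 and 6.69 and its ZT12 arrays at 8.96, 7.49, 7.99 and 8.57. The difference of -0.37 (SE 0.18) had an interval from -0.75 to 0.0016 (1.68-fold at its widest). The dawn part was -0.89 (unadjusted p = 0.00201, limma adjusted p = 0.957) and -0.66 without ZT0 replicate 4.

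Among transcripts with opposite dawn and dusk parts, Usf1, a transcription factor that binds E-boxes, had -0.42 at dawn and 0.17 at dusk. Avpr1a, a vasopressin receptor, had 0.20 and -0.21. Rnf182, a ubiquitin ligase gene, had a dawn part of -0.33, and its dusk part of 0.05 (SE 0.065) was near 0. The smallest adjusted p of the dawn part was 0.498 (limma), for Rnf182 and Usf1.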
